A study of Mus musculus with 2 samples.

Results

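Interleukin 1 and tumour necrosis factor signalling was followed through 10 genes, chosen by symbol from the 19070 genes of the probe set: the ligands Il1a, Il1b, Tnf and Il18, the interleukin 1 receptor antagonist Il1rn, the inflammasome sensor Nlrp3, and the receptor genes Il1r1, Il1rap, Tnfrsf1a and Tnfrsf1b. They were measured by Visium HD, a probe-based spatial assay that counts molecules (unique molecular identifiers, UMIs) on a grid of 16 µm bins, in 1 coronal brain section 3 days and 1 section 28 days after controlled cortical impact (CCI), in which a piston is driven into the exposed cortex on one side. Both sections came from male C57Bl6 mice (C57BL/6J in the study's methods), each an animal of its own, and both animals were injured at an age of 3 months, so the second was 28 days older than that when sectioned. The reference within each section was therefore the hemisphere opposite the impact, since no sham-operated or uninjured section was analysed here, and time after injury cannot be told apart from the animal. With 1 section per time point no test between sections or sides was possible, so the 95% intervals given are exact and cover counting error only.

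Interleukin 1α and 1β, encoded by Il1a and Il1b, both signal through IL-1R1 paired with the accessory protein encoded by Il1rap, while the product of Il1rn occupies the same receptor without signalling. IL-1β and IL-18 are made as precursors that caspase 1 cleaves once an inflammasome, such as the one built on NLRP3, has assembled, whereas TNF acts through the widely expressed TNFR1 (Tnfrsf1a) and through TNFR2 (Tnfrsf1b), which is known from immune, endothelial and glial cells. In the injured brain microglia, infiltrating myeloid cells and astrocytes are known sources of these cytokines, and endothelium, meningeal cells, choroid plexus and granule neurons of the dentate gyrus are known sites of IL-1R1. Transcript counts do not report cleavage, secretion or binding of these proteins.

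A bin is a small area that can hold parts of several cells, and fewer cells of a type cannot be told apart from less RNA per cell. The injured side was taken as the columns below 130 of the array at 3 days and below 240 at 28 days. Injured and opposite sides held 37565025 and 82919911 UMIs at 3 days and 37121839 and 45172786 UMIs at 28 days, over 119617 and 103316 bins. The array covered 2.08 mm of the injured and 4.62 mm of the opposite side at 3 days, so lateral injured tissue was not sampled there, against 3.84 and 2.86 mm at 28 days, when tissue was missing dorsally on the injured side. The sections shared 84781 bin names, which are array positions and not shared cells. The members were sparse: Il18, Il1rap and Tnfrsf1a were found in 3% to 5.89% of bins, and Tnf in 0.0945% of bins at 3 days and 0.0329% at 28 days. Levels are given as UMIs per 1000000 UMIs of the same area (CPM) and are compared only within a gene, because probes differ in yield.

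Il1b and Tnf were higher on the injured side in both sections, with fewer UMIs at 28 days. Il1b, whose product is the secreted inflammasome-dependent ligand, gave 139 UMIs on the injured and 40 on the opposite side at 3 days, or 3.7 and 0.482 CPM, a log2 ratio of 2.93 (interval 2.42 to 3.48). At 28 days Il1b gave 70 and 15 UMIs, or 1.89 and 0.332 CPM, a log2 ratio of 2.47 (1.69 to 3.42). The side difference of Il1b thus had overlapping intervals at the 2 times, while its level on the injured side was lower at 28 days, with a log2 difference between sections of -0.97 (-1.41 to -0.55). Tnf, the founding ligand of its family, gave 89 and 30 UMIs at 3 days, or 2.37 and 0.362 CPM, a log2 ratio of 2.70 (2.10 to 3.36). By 28 days Tnf was counted 27 times on the injured and 8 times on the opposite side, or 0.727 and 0.177 CPM, a log2 ratio of 1.98 (0.86 to 3.39). The injured-side level of Tnf was lower at 28 days, with a log2 difference of -1.69 (-2.38 to -1.07).

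Il1a ran the other way in time. This ligand, whose precursor is active without cleavage and is known to act as an alarmin, gave 260 UMIs on the injured and 401 on the opposite side at 3 days, or 6.92 and 4.84 CPM, a log2 ratio of 0.52 (0.29 to 0.75). In the 28-day section Il1a was counted 398 and 135 times, or 10.7 and 2.99 CPM, a log2 ratio of 1.84 (1.56 to 2.14). Both sides contributed to the larger ratio. The Il1a level was higher at 28 days on the injured side (log2 difference 0.63, 0.40 to 0.86). It was lower on the opposite side (log2 difference -0.69, -0.99 to -0.41). Between the sections most genes lay between -0.72 and 0.65 on the injured side, a range that holds the Il1a value. On the opposite side most genes lay between -0.46 and 0.58, a range that leaves the Il1a value out. Il18, the other inflammasome substrate, differed little between the sides taken whole, with 38 and 34.3 CPM at 3 days (1429 and 2841 UMIs) and 38.9 and 40.2 CPM at 28 days (1444 and 1815 UMIs). Its log2 side ratios were 0.15 (0.06 to 0.24) and -0.05 (-0.15 to 0.05).

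Il1rn, the antagonist, was counted 136 times on the injured and 30 times on the opposite side at 3 days, or 3.62 and 0.362 CPM, a log2 ratio of 3.30 (2.74 to 3.94). It gave 110 and 15 UMIs at 28 days, or 2.96 and 0.332 CPM, a log2 ratio of 3.12 (2.37 to 4.04). Il1rn had the highest side ratio of the 10 genes in both sections, with an interval that overlapped that of Il1b, and its injured-side level differed little between them (log2 difference -0.29, -0.66 to 0.08). Nlrp3, the sensor that nucleates the inflammasome, gave 104 and 98 UMIs at 3 days, or 2.77 and 1.18 CPM (log2 ratio 1.23, 0.82 to 1.64), and 116 and 45 UMIs at 28 days, or 3.12 and 0.996 CPM (log2 ratio 1.64, 1.14 to 2.18).

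Among the receptors, the TNF receptor genes showed larger side differences than the IL-1 receptor genes. Tnfrsf1a, encoding the receptor with a death domain, gave 3904 and 3191 UMIs at 3 days, or 104 and 38.5 CPM (log2 ratio 1.43, lower end 1.37), and 3002 and 1401 UMIs at 28 days, or 80.9 and 31 CPM (1.38, 1.29 to 1.48). Tnfrsf1b, encoding the receptor that binds membrane TNF well, gave 632 and 516 UMIs at 3 days, or 16.8 and 6.22 CPM (1.43, 1.26 to 1.61). Its 854 and 278 UMIs at 28 days, or 23 and 6.15 CPM, gave a ratio of 1.90 (1.71 to 2.10), with an interval clear of the 3-day one. Il1r1, the signalling receptor for both IL-1 ligands, gave 20.9 and 12.4 CPM at 3 days (786 and 1029 UMIs, log2 ratio 0.75, 0.62 to 0.89) and 17.8 and 9.5 CPM at 28 days (662 and 429 UMIs, log2 ratio 0.91, 0.73 to 1.09). Il1rap, the shared accessory chain, lay at 72.1 and 59.6 CPM at 3 days (2710 and 4940 UMIs, log2 ratio 0.28, 0.21 to 0.34) and at 55 and 67.3 CPM at 28 days (2042 and 3039 UMIs, log2 ratio -0.29, -0.37 to -0.21). Il1rap was the only one of the 10 whose interval lay below 0 in a section. Its 3-day ratio turned to -0.05 when only columns within the same distance of the boundary were used on both sides.

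At least 2-fold higher on the injured side were 6 of the 10 genes at 3 days, where 10.5% of 16164 genes with at least 20 UMIs passed the same fold, and 7 of 10 at 28 days, where 6.43% of 15640 genes did. None was 2-fold lower. The median log2 side ratio was 1.33 over the members and 0.14 over all genes at 3 days, and 1.74 and 0.04 at 28 days.

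**Figure D1:**
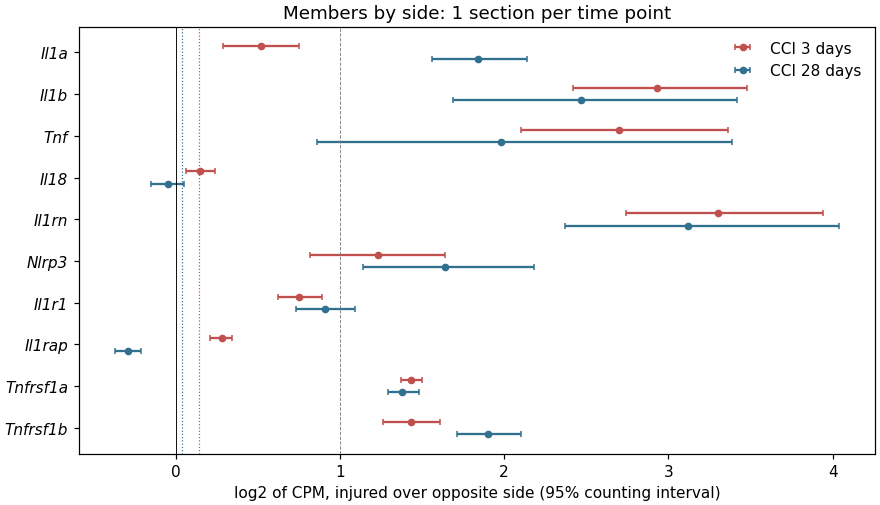
Points give the log2 of CPM on the injured over the opposite side for each gene at 3 days (red) and 28 days (blue), with 95% counting intervals. The dashed line marks 2-fold and the dotted lines the median of all genes. Il1rn, Il1b and Tnf lie farthest right in both sections, Il1a moves from 0.52 to 1.84, and Il1rap changes side from 0.28 to -0.29.

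Distance from the lesion separated the genes further. Because the sections carry no lesion outline, a zone was drawn on the injured side from 6 phagocyte genes (Cd68, Lyz2, Ctsz, Lgals3, Cd52 and Laptm5): tiles of 64 µm whose share of these genes exceeded the 99th percentile of tiles on the opposite side. Phagocyte genes are therefore high in the zone by construction, and no member was used to draw it. It formed 1 connected patch in each section, of 571 tiles at 3 days and 903 at 28 days, and held 13.7% and 19.3% of injured-side UMIs. The 28-day zone reached more than 3000 µm from the boundary, whereas the 3-day array ended at 2.08 mm. Zone levels at the 2 times therefore cover unlike tissue, and the part of this in their differences was not tested. The reference was the same outline reflected across the boundary, the mirror zone, and bins of the zone were shallower than those of its mirror (means of 607 and 928 UMIs at 3 days, 528 and 625 at 28 days).

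Il1b and Il1rn were concentrated in the zone in both sections. At 3 days the zone held 115 of the 139 injured-side UMIs of Il1b (82.7%), or 22.3 CPM against 1.04 CPM in the mirror zone (115 and 8 UMIs, log2 ratio 4.34, 3.39 to 5.66). At 28 days it held 81.4%, or 7.96 CPM against 0.266 CPM (57 and 2 UMIs, log2 ratio 4.59, 2.98 to 7.98). Outside the zone the injured-side level of Il1b was 0.741 CPM at 3 days, with an interval against the opposite side that reached 0 (log2 ratio 0.63, -0.18 to 1.38). Il1rn gave 20 CPM in the zone and 1.04 CPM in its mirror at 3 days (103 and 8 UMIs, log2 ratio 4.18, 3.23 to 5.51), and 12.7 and 0.4 CPM at 28 days (91 and 3 UMIs, log2 ratio 4.78, 3.40 to 7.30). The antagonist and Il1b were thus in the same zone, and the zone level of both was lower at 28 days. The log2 difference was -1.48 (-1.97 to -1.01) for Il1b and -0.65 (-1.07 to -0.23) for Il1rn. Most genes lay between -1.13 and 0.96 in the zone, a range that holds the Il1rn value and leaves out that of Il1b.

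Tnf was not confined to the zone at 3 days. The zone held 38.2% of its injured-side UMIs, at 6.59 CPM against 1.17 CPM in the mirror zone (34 and 9 UMIs, log2 ratio 2.43, 1.40 to 3.73), and the rest of the injured side still gave 1.7 CPM against 0.362 CPM on the opposite side (55 and 30 UMIs, log2 ratio 2.22, 1.56 to 2.92). In bands outward from the zone Tnf gave 4.42 CPM within 250 µm (26 UMIs), 3.17 CPM at 250 to 500 µm (15 UMIs), 1.32 CPM at 500 to 1000 µm (8 UMIs) and 0.416 CPM at 1000 to 2000 µm (4 UMIs). The mirrored bands gave 0.858, 0.396, 0 and 0.111 CPM, on 7, 2, 0 and 1 UMIs. The injured-side Tnf level thus declined with distance at 3 days, with intervals that overlapped between neighbouring bands. The mirrored level fell too, on few UMIs, so the decline was not seen on the injured side alone. By 28 days 92.6% of injured-side Tnf UMIs lay in the zone, at 3.49 CPM against 0.133 CPM in the mirror zone (25 UMIs and 1 UMI, log2 ratio 4.16, 2.10 to 10.07), and only 2 UMIs were left on the rest of the injured side.

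The zone held a larger share of injured-side Il1a at 28 days than at 3 days, as for Tnf. The zone level of Il1a was higher at 28 days, whereas that of Tnf was lower (log2 difference -0.91, -1.72 to -0.13). The Tnf value lay within the range of most genes in the zone (-1.13 to 0.96). At 3 days Il1a was level from the zone outward, at 6.78 CPM in the zone and 8.84, 8.66, 8.6 and 6.76 CPM in the 4 bands (mirrored bands 7.35, 1.59, 2.69 and 4.68 CPM), and the zone did not stand above its mirror (35 and 65 UMIs, log2 ratio -0.31, -0.96 to 0.29). At 28 days the zone held 69.8% of injured-side Il1a, at 38.8 CPM against 2.8 CPM in the mirror zone (278 and 21 UMIs, log2 ratio 3.76, 3.15 to 4.51), while the bands lay between 2.94 and 4.45 CPM. Between the sections the zone level of Il1a was higher at 28 days by a log2 difference of 2.50 (2.01 to 3.07), where the middle 90% of all genes lay between -1.13 and 0.96 with a median of -0.10.

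**Figure D2:**
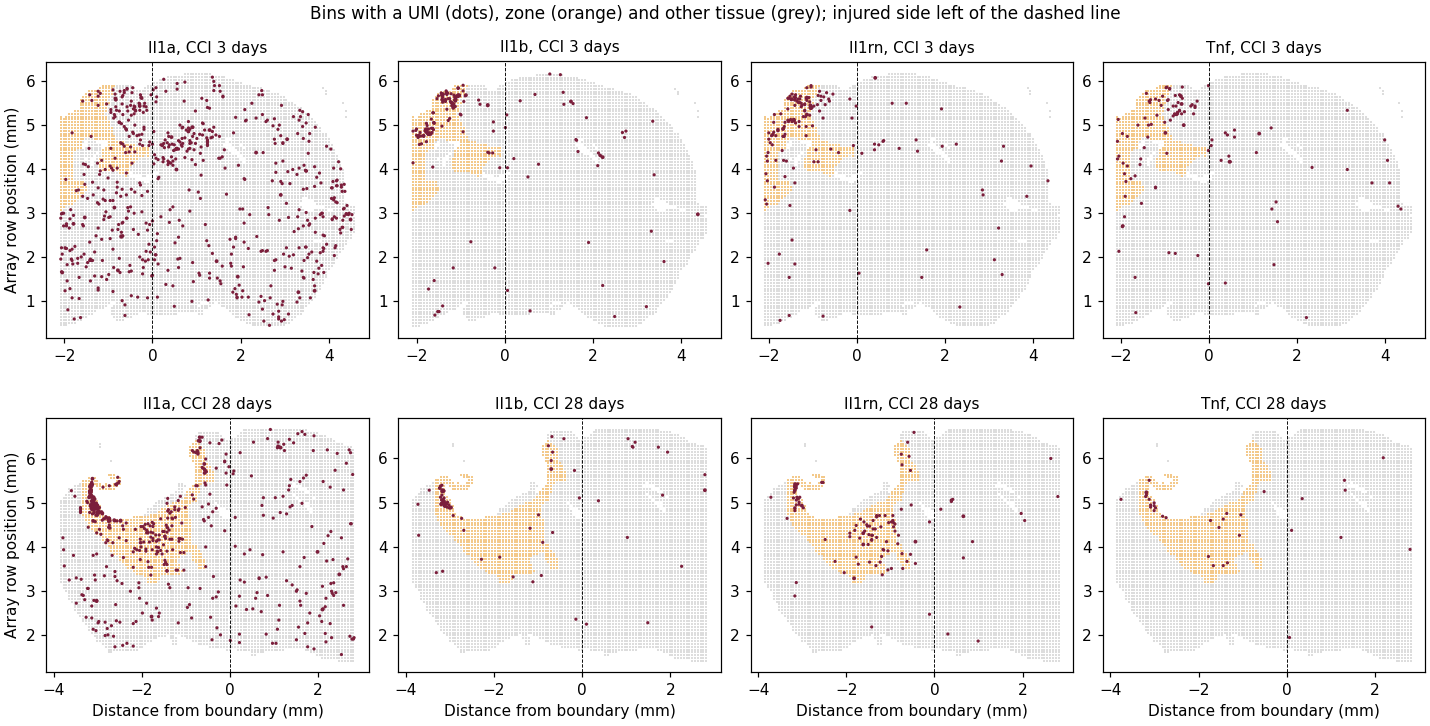
Dots mark bins with at least 1 UMI of Il1a, Il1b, Il1rn or Tnf on the 3-day (top) and 28-day (bottom) sections, over tissue (grey) and zone (orange), with distances in mm and the injured side left of the dashed line. Il1b and Il1rn cluster in the dorsolateral zone at 3 days. At 28 days Il1b lies mostly in the outermost part of the zone, and Il1a and Il1rn are also found through the rest of it.

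The genes differed in place within the zone too, described here by distances chosen after the maps were seen. At 3 days 109 of 115 Il1b UMIs and 97 of 103 Il1rn UMIs lay at least 1000 µm from the boundary between sides, an area with 72.1% of zone bins, at 29.4 CPM and 26.1 CPM against 4.13 CPM for each in the rest of the zone. Il1a had the opposite placement, with 4.31 CPM in that area and 13.1 CPM nearer to the boundary. The choroid plexus list, which marks a ventricular part of the zone, gave 396 CPM beyond 1000 µm and 3004 CPM nearer to the boundary. Beyond 1000 µm the phagocyte list (1385 and 956 CPM) and the neutrophil list (108 and 48.9 CPM) were higher, the monocyte list was at 45.5 and 42.7 CPM, and the microglia list was lower (1497 and 2024 CPM). The endothelium list was higher there too (432 and 273 CPM). The fibroblast and meninges list (346 and 607 CPM), the ependyma list (200 and 423 CPM) and the oligodendrocyte and white matter list (7164 and 10265 CPM) were lower. At 28 days 40 of 57 Il1b UMIs lay at least 3000 µm from the boundary, in the lateral end of the zone beside the missing tissue, which held 9.43% of zone bins and 23.2% of zone UMIs. Il1b gave 24.1 CPM there and 3.09 CPM elsewhere in the zone. Il1a gave 62 and 31.8 CPM, Tnf 7.22 and 2.37 CPM on 12 and 13 UMIs, and Il1rn 16.2 and 11.6 CPM. The 3-day array ended 2.08 mm from the boundary, so this end had no counterpart at 3 days. Bins of that end were deeper (means of 1300 and 448 UMIs), the phagocyte list was higher (4334 and 2166 CPM), as were the neutrophil list (410 and 168 CPM) and the monocyte list (36.1 and 7.46 CPM), and the microglia list was lower (3240 and 4192 CPM). The ependyma list (342 and 215 CPM) and the neuron list (2469 and 2018 CPM) were higher too. Lists that were lower included oligodendrocyte and white matter (2099 and 7523 CPM), astrocyte (4967 and 6056 CPM) and endothelium (188 and 263 CPM). No bin of that end was of the white matter class, so the 2 parts of the zone were unlike tissue. Of the 1605 neutrophil-list UMIs in the 28-day zone Csf3r gave 1132, and Ly6g, Retnlg and Mmp8 gave 4, 5 and 2. The part of these lists in the levels of either section was not tested.

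The receptors and Nlrp3 were higher in the zone than in the mirror zone at both times, except Il1rap at 28 days. Tnfrsf1a gave 284 and 81.4 CPM at 3 days (log2 ratio 1.80, 1.67 to 1.94) and 245 and 30.6 CPM at 28 days (2.99, 2.80 to 3.20). Tnfrsf1b gave 55 and 8.34 CPM at 3 days (2.71, 2.33 to 3.14) and 81.3 and 5.86 CPM at 28 days (3.78, 3.35 to 4.27). Its zone level was the higher at 28 days (log2 difference 0.56), within the range of most genes (-1.13 to 0.96). Nlrp3 gave 6.78 and 1.96 CPM at 3 days (35 and 15 UMIs, log2 ratio 1.77, 0.88 to 2.77) and 9.22 and 0.533 CPM at 28 days (66 and 4 UMIs, log2 ratio 3.95, 2.69 to 6.03). Il1r1 gave 48.4 and 34.7 CPM at 3 days (0.48, 0.23 to 0.74) and 45.8 and 7.59 CPM at 28 days (2.58, 2.18 to 3.03). The zone level of Il1r1 was nearly the same in the sections (log2 difference -0.08, -0.32 to 0.16) and its mirror level was not (-2.18, -2.63 to -1.77). The mirror zones covered different tissue: 10.2% of mirror bins were of the hippocampal pyramidal class and 4.26% of the dentate granule class at 3 days, against 1.09% and 0.192% at 28 days. The change of the Il1r1 ratio thus lies in the reference level, and the part of tissue composition in it was not tested. Il1rap gave 179 and 101 CPM at 3 days (0.84, 0.70 to 0.98) and 79.9 and 81.9 CPM at 28 days (-0.04, -0.20 to 0.13), and Il18 gave 42.2 and 27.9 CPM, then 51.4 and 44.5 CPM.

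Beyond the zone at 3 days Tnfrsf1a gave 164, 79.5, 54.6 and 36.4 CPM in the 4 bands, and Il1r1 39.8, 17.8, 10.4 and 7.59 CPM. The mirrored bands fell over the first steps too, with 63.7, 32.1, 21.5 and 30.5 CPM for Tnfrsf1a and 18.6, 9.32, 12.8 and 10 CPM for Il1r1. The decline was thus not seen on the injured side alone. At 28 days the Tnfrsf1a bands were at 59.4, 43.1, 29.7 and 38.4 CPM and the mirrored ones at 24.8, 31.9, 27.7 and 43.3 CPM. At least 2-fold higher in the zone than in the mirror zone were 6 of the 10 genes at 3 days (17.4% of 13559 genes) and 8 of 10 at 28 days (16.3% of 13603 genes), with none 2-fold lower. The members' median log2 ratio was 1.79 at 3 days and 3.77 at 28 days, against 0.13 and -0.00 over all genes. The rise between sections depends in part on the mirror zone, whose level was lower at 28 days for Tnfrsf1a, Nlrp3 and Il1a as well as Il1r1. Against the whole opposite side 9 of the 20 ratios moved beyond their intervals. With that reference the log2 ratio of Tnfrsf1a was 2.89 at 3 days and 2.98 at 28 days, that of Il1r1 1.97 and 2.27, that of Nlrp3 2.53 and 3.21, and that of Il1a 0.51 and 3.70. The ratios of Il1b, Il1rn and Il1rap to the whole opposite side were lower at 28 days by value. No intervals are given for these ratios, and the opposite side held few UMIs of Il1b (40, then 15) and Il1rn (30, then 15). Il1b gave 22.3 and 0.482 CPM at 3 days and 7.96 and 0.332 CPM at 28 days. Il1rn gave 20 and 0.362, then 12.7 and 0.332 CPM, and Il1rap 179 and 59.6, then 79.9 and 67.3 CPM.

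**Figure D3:**
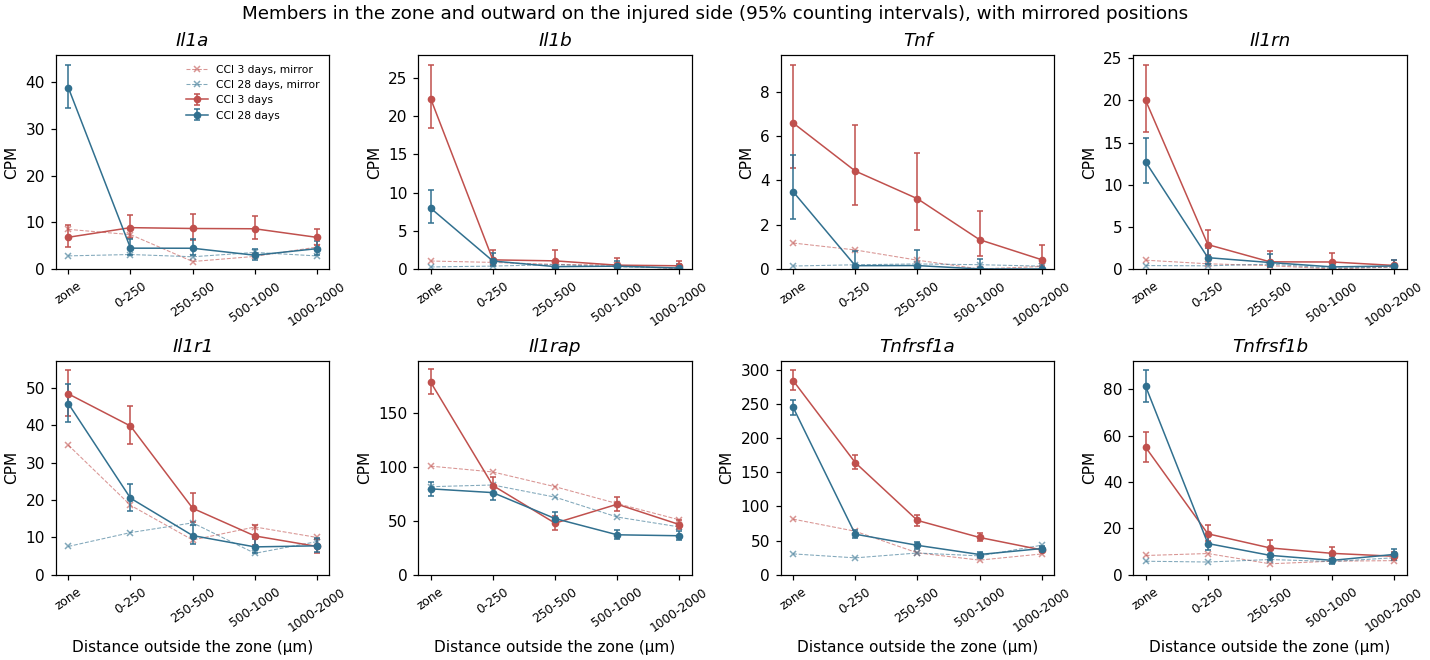
Lines with points give the CPM of 8 genes in the zone and in 4 bands outward on the injured side (distance in µm), with 95% counting intervals, at 3 days (red) and 28 days (blue), and crosses give the mirrored positions. Tnf falls off over several bands at 3 days (6.59, 4.42 and 3.17 CPM), as does its mirrored level on fewer UMIs (1.17, 0.858 and 0.396 CPM). Tnfrsf1a also falls on both sides (164 to 54.6 CPM, mirrored 63.7 to 21.5 CPM). Il1b drops at the zone edge from 22.3 to 1.19 CPM, and Il1a is level at 3 days and peaks in the zone at 28 days (38.8 CPM).

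Because Il1a, Il1b, Tnf and Il1rn had the ligand and antagonist patterns described above, the sequence around their transcription starts is shown, from RefSeq on GRCm38.p6, 250 bases before and 50 bases after the start. Capitals mark letters found on either strand for a TATA box (TATAAA), an AP-1 element (TGANTCA), the PU.1 core (GAGGAA) or a single kappaB-like form, described below. Il1a (chr2:129299609-129310186) and Il1b (chr2:129364569-129371164) are neighbours on the minus strand, 54383 bases apart, Il1rn (chr2:24336860-24351491, plus strand) is on the same chromosome, and Tnf lies at chr17:35199367-35202007 on the minus strand.
Il1a chr2:129309923-129310222, minus strand: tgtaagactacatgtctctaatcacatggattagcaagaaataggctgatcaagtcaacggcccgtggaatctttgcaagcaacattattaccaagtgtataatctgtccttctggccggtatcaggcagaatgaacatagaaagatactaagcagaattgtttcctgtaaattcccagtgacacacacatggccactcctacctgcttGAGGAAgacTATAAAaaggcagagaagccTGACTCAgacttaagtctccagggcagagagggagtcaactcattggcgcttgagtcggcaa
Il1b chr2:129371090-129371389, minus strand: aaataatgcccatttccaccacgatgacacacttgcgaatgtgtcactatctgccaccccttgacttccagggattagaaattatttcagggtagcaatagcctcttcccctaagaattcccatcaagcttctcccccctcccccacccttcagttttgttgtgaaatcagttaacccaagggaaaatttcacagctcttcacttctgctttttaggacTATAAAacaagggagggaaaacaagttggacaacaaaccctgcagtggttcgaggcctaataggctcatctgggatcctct
Tnf chr17:35201958-35202257, minus strand: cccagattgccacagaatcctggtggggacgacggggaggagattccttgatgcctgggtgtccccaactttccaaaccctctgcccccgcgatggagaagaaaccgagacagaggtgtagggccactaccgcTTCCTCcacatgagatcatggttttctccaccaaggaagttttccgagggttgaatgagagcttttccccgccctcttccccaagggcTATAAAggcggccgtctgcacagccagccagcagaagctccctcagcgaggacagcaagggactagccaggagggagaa
Il1rn chr2:24345121-24345420, plus strand: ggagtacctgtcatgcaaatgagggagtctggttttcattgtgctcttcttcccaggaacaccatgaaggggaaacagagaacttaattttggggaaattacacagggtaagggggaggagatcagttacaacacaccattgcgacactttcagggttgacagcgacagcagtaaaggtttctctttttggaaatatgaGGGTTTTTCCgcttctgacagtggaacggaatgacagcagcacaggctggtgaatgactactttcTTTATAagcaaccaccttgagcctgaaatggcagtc

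The windows of Il1a, Il1b and Tnf each held TATAAA on the sense strand, beginning 32, 31 and 29 bases before the start. Of 32851 windows of the same length, 13.6% held TATAAA on either strand, and 1.75% held it on the sense strand beginning 25 to 35 bases before the start. The Il1a window also held TGACTCA 12 bases and GAGGAA 41 bases before the start, motifs found in 7.81% and 28.3% of windows. In the Il1rn window shown, 1 of 3 for that gene, GGGTTTTTCC lay 51 bases before the start. It matched the only kappaB-like form searched, which was found in 1.63% of windows. That form fixed every letter of this match except the first pair of T. Whether the match is a kappaB element was not tested. Other kappaB forms were not searched, so the windows of Il1a, Il1b and Tnf are not shown to lack such elements. Over the 14 windows of the 10 genes, the PU.1 core (28.3% of all windows) was found for 4 genes (Il1a, Tnf, Tnfrsf1b and Nlrp3), and the CRE letters TGACGTCA, present in 1.79% of windows, for none. A match describes the letters and does not show that a factor binds, and a missing match says only that these letters are not in the window.

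The opposite hemisphere gave the anatomy of the members away from the lesion. Tiles of 64 µm were placed in 13 classes by marker lists, such as Prox1-bearing dentate granule layer or meninges, and the class names stand for those lists. Il1r1 at 3 days was highest in the dentate granule layer (104 CPM, 110 UMIs), followed by choroid plexus (61.6 CPM) and the fibroblast and meninges class (57.1 CPM), which did not differ from each other beyond counting error. Cortical layer 5 was the lowest, at 3.86 CPM. At 28 days the meninges class (72 CPM), dentate granule layer (70.1 CPM) and choroid plexus (52.7 CPM) led and were not apart. Il1rap shared the dentate granule layer as its highest class (189 CPM at 3 days, 253 CPM at 28 days), then white matter (136 and 106 CPM) and thalamus (90.4 and 98.4 CPM), with the latter pair not apart at 28 days. The dentate granule layer was thus high for both chains of the IL-1 receptor.

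Both TNF receptor genes were highest in the meninges class. Tnfrsf1a was highest in the meninges class (240 CPM at 3 days, 215 CPM at 28 days), then choroid plexus (185 and 113 CPM) and ependyma (133 and 69.2 CPM). Tnfrsf1b was at 20.1 and 21.3 CPM in the meninges class, not apart from ependyma (17.8 CPM) at 28 days. White matter (13.3 CPM) and the dentate granule layer (13.2 CPM) came next for Tnfrsf1b at 3 days, not apart from ependyma (11.6 CPM). Il18 was also highest in the meninges class (84 and 88 CPM), then white matter (62.9 and 76.1 CPM) and ependyma (53.9 and 73.1 CPM), and these 3 were not apart at 28 days. For Il1a no class was apart from its neighbour in the order at either time, with the hippocampal pyramidal layer (13.8 CPM), white matter (13.6 CPM) and dentate granule layer (11.3 CPM) first at 3 days.

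In the hippocampal classes opposite the impact several members were higher at 3 days than at 28 days: Tnfrsf1a, Il1a and Il1r1 in both classes, and Tnfrsf1b, Nlrp3 and Il1rap in the pyramidal class. Over the whole opposite side most genes lay between -0.46 and 0.58. No such range is given for single classes, so whether the members stand out from other genes there is not shown. In the pyramidal class Tnfrsf1a gave 103 CPM at 3 days and 12.7 CPM at 28 days (230 and 12 UMIs, log2 difference -2.96, -3.99 to -2.18). Il1a gave 31 UMIs at 3 days and 0 of 947402 UMIs at 28 days, where a floor of 3 UMIs is 3.17 CPM, so its level was at least 4.36-fold higher at 3 days by that floor, and the exact interval of the log2 difference ended at -1.74. Il1r1 gave 29 and 8.44 CPM there (log2 difference -1.70, -3.05 to -0.72), Il1rap 67.8 and 46.4 CPM (-0.53, -1.06 to -0.05), and Tnfrsf1b 11.6 and 3.17 CPM on 26 and 3 UMIs (-1.68, -4.24 to -0.17). Nlrp3 gave 11 UMIs at 3 days and 0 at 28 days, with an interval that ended at -0.08. In the dentate granule class Tnfrsf1a gave 103 and 22.1 CPM (-2.19, -2.93 to -1.56) and Il1a 11.3 and 0.961 CPM on 12 UMIs and 1 UMI, whereas Il1rap was lower at 3 days in that class (189 and 253 CPM, 0.41, 0.14 to 0.69). Outside the hippocampus Tnfrsf1a was also lower at 28 days in white matter (73 and 47.7 CPM, log2 difference -0.61, -0.91 to -0.32), choroid plexus (185 and 113 CPM, -0.70, -1.12 to -0.29) and ependyma (133 and 69.2 CPM, -0.93, -1.53 to -0.39). These gaps were smaller than in the pyramidal and dentate classes. In thalamus it gave 25.7 and 30.7 CPM, and in hypothalamus it was the higher at 28 days (22.3 and 32.5 CPM, 0.54, 0.27 to 0.82). Il1a was also lower at 28 days in cortical layer 6 (4.14 and 1.3 CPM, -1.53, -3.67 to -0.11) and striatum (5.28 and 2.2 CPM, -1.21, -2.65 to -0.03). Il1r1 was also lower in white matter (13.9 and 7.09 CPM, -0.95, -1.76 to -0.22) and ependyma (40.2 and 17.8 CPM, -1.12, -2.41 to -0.10). Il1rap was also lower at 28 days in striatum (55.1 and 40.8 CPM, -0.43, -0.74 to -0.13) and white matter (136 and 106 CPM, -0.37, -0.57 to -0.16). In cortical layer 6 it was the higher at 28 days (68.3 and 82.8 CPM, 0.28, 0.04 to 0.51). With these members moved the microglia list (718 and 203 CPM in the pyramidal class, 667 and 253 CPM in the dentate class), the phagocyte list (218 and 45.4 CPM in the pyramidal class) and Gfap (1328 and 183 CPM, then 1776 and 312 CPM). The astrocyte list had the lower value at 3 days (1231 and 1570 CPM) in the pyramidal class and the higher in the dentate class (1969 and 1736 CPM). Their part in the result was not tested, and the animal and section plane cannot be told apart from time.

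**Figure D4:**
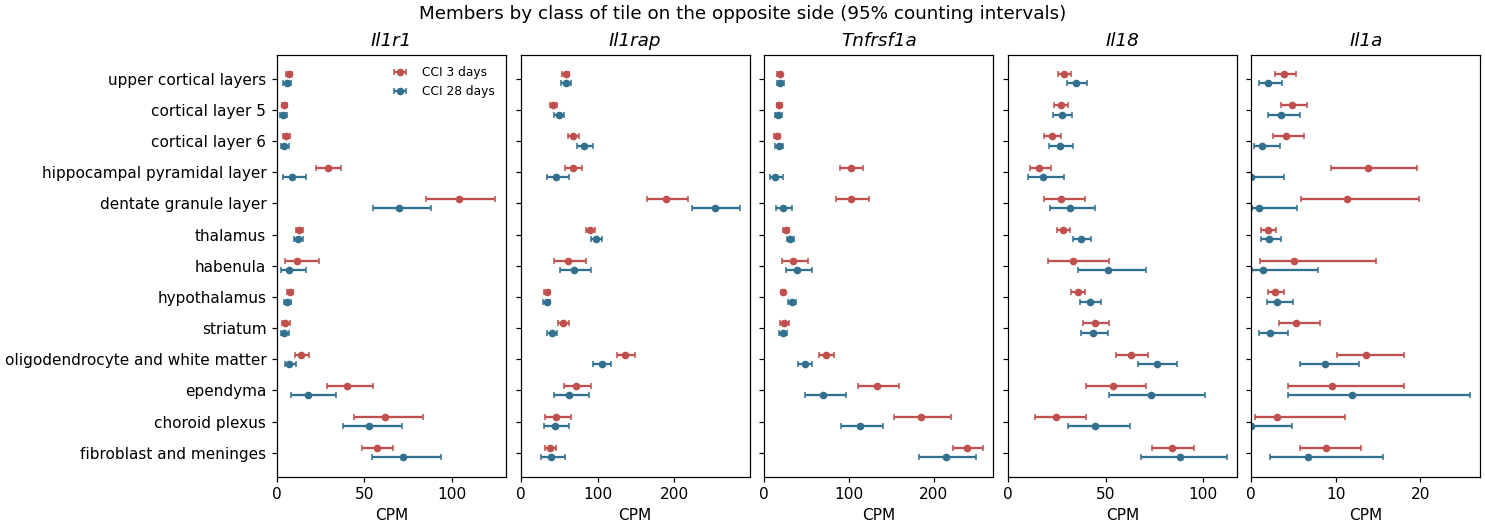
Points give the CPM of 5 genes in 13 tile classes of the opposite side at 3 days (red) and 28 days (blue), with 95% counting intervals. Il1r1 and Il1rap peak in the dentate granule layer (104 and 189 CPM at 3 days) and Tnfrsf1a in the fibroblast and meninges class (240 CPM), and in the pyramidal class Tnfrsf1a is at 103 CPM at 3 days and 12.7 CPM at 28 days.

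Tissue of the same class was also compared between the 2 sides, outside the zone. At 3 days Tnfrsf1a was higher on the injured side in 7 of 11 classes with an interval above 0, and lower in 1, ependyma (93.5 and 133 CPM). Its level was 96.1 against 15.1 CPM in cortical layer 6 (95 and 80 UMIs, log2 ratio 2.67, 2.23 to 3.12), 87.9 against 18 CPM in layer 5 (2.29, 1.94 to 2.64) and 146 against 23.6 CPM in striatum (2.63, 2.15 to 3.09). Il1a was higher in 4 of 11 classes, among them layer 5 (13.2 and 4.82 CPM) and thalamus (5.7 and 1.93 CPM). Tnf was higher in layers 5 and 6, on 6 and 3 UMIs and on 5 UMIs and 1 UMI. Il1b was higher in 1 of 11, the upper cortical layers (3 and 2 UMIs), and lower in 2, choroid plexus (1 UMI and 6 UMIs) and ependyma (0 and 5 UMIs). In layers 5 and 6 the microglia list was at 600 and 632 CPM on the injured against 254 and 249 CPM on the opposite side, and the phagocyte list at 207 and 232 against 56.8 and 70 CPM. In striatum the microglia list was at 1055 against 372 CPM and the phagocyte list at 377 against 94.6 CPM, while the marker list of the class was lower (3330 and 5485 CPM). In thalamus the class list was at 1354 against 2656 CPM, the microglia list at 388 against 265 CPM and the phagocyte list at 106 against 59.2 CPM. In the upper cortical layers the microglia list was at 492 against 289 CPM and the phagocyte list at 161 against 66.9 CPM. The part of these lists was not tested.

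Il1r1 was higher on the injured side in 4 of 11 classes at 3 days: the upper cortical layers (17.9 and 6.68 CPM, log2 ratio 1.48, 0.36 to 2.35), layer 5 (11.9 and 3.86 CPM, 1.64, 0.68 to 2.51), layer 6 (14.2 and 5.08 CPM, interval 0.43 to 2.46) and striatum. In striatum it gave 34.9 and 4.78 CPM (log2 ratio 2.87, 1.81 to 3.90). It was lower in 2, ependyma (21.5 and 40.2 CPM) and the dentate granule layer. At 28 days it was higher in 1 of 12, thalamus (20.3 and 12.1 CPM), where the microglia list (482 and 242 CPM) and the phagocyte list (127 and 51 CPM) were higher too. It was lower in 2, the meninges class (43.1 and 72 CPM) and the dentate granule layer.

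In the dentate granule class both IL-1 receptor chains were lower on the injured side. At 3 days Il1rap gave 59.6 against 189 CPM (16 and 201 UMIs, log2 ratio -1.63, -2.50 to -0.93) and Il1r1 48.4 against 104 CPM (13 and 110 UMIs, log2 ratio -1.05, -2.05 to -0.26). The marker list of the class was lower there too (634 and 1062 CPM), and the astrocyte list was higher (4371 and 1969 CPM). At 28 days Il1rap gave 188 and 253 CPM (-0.43, -0.73 to -0.13) and Il1r1 44.3 and 70.1 CPM (-0.65, -1.30 to -0.05), while the class list was at 931 and 938 CPM. Tnfrsf1a went the other way in that class at 28 days, with 53.6 and 22.1 CPM (1.27, 0.50 to 2.09). With it moved the microglia list (452 and 253 CPM), the phagocyte list (142 and 71.1 CPM) and the astrocyte list (3215 and 1736 CPM). Their part was not tested. Il1rap was below the opposite side in 5 of 12 classes at 28 days, cortical layer 6 among them (38.2 and 82.8 CPM, log2 ratio -1.10, -1.69 to -0.58), and Tnfrsf1b was above it in 3 of 12, white matter among them (35.5 and 9.99 CPM, log2 ratio 1.83, 1.01 to 2.64). The microglia list was higher on the injured side in both of these classes (425 and 237 CPM in layer 6, 1071 and 714 CPM in white matter). Il18 was below the opposite side in 3 of 12 classes at 28 days, and at 3 days it was below it in 1 of 11 and above it in 1 of 11. In white matter Il18 gave 45.2 and 62.9 CPM at 3 days and 39.8 and 76.1 CPM at 28 days.

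Marker lists in zone bins that held a UMI of a member were compared with the other zone bins. Il1b bins at 3 days were richest, relative to other bins, in the monocyte list of Ccr2, Plac8 and Chil3 (329 and 41.4 CPM on 20 UMIs, log2 ratio 3.02) and also held more of the neutrophil list (280 and 89.2 CPM) and the phagocyte list (2286 and 1252 CPM). Of the neutrophil list, S100a8 (5 UMIs) and S100a9 (10 UMIs) were higher in those bins, Csf3r gave 32.8 and 37.2 CPM, and Retnlg, Mmp8 and Ly6g gave 0 there, of 2, 12 and 1 UMIs in the zone. At 28 days the highest ratio in Il1b bins was that of the neutrophil list (1737 and 206 CPM, log2 ratio 3.08): S100a9 was found in 22 of 47 Il1b bins, which held 95 of the 321 S100a9 UMIs of the zone, whereas Ly6g, the defining neutrophil marker, gave 4 UMIs in the zone and 0 in those bins. Of the other sparse genes of that list, Retnlg gave 5 UMIs in the zone and 1 in those bins, and Mmp8 gave 2 and 1. S100a8, S100a9 and Csf3r are also known from other myeloid cells. Of the 57 zone UMIs of Il1b at 28 days 40 lay in the lateral end of the zone. Bins there were deeper (means of 1300 and 448 UMIs) and held more of the neutrophil list (410 and 168 CPM). The part of depth and place in the lists of Il1b bins was not tested. Il1rn bins held more of the phagocyte list (2245 and 1252 CPM at 3 days, 9105 and 2594 CPM at 28 days).

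Il1a and Tnf sat with microglial and phagocyte markers. Il1a bins of the zone held more of the microglia list at 3 days (2832 and 1641 CPM) and more of the phagocyte list at 28 days (8059 and 2444 CPM), and on the opposite side at 3 days they held 1457 against 337 CPM of the microglia list. Tnf bins held more of the microglia list on the opposite side at 3 days (2438 and 342 CPM, 28 bins) and of the phagocyte list in the zone (2423 and 1259 CPM, then 7338 and 2648 CPM). The few Il1b bins of the opposite side (37 at 3 days) differed, with 408 against 343 CPM of the microglia list and 35566 against 1349 CPM of the choroid plexus list. These levels are pooled over bins of unlike tissue. Of the 40 Il1b UMIs of that side 6 lay in the choroid plexus class, 5 in ependyma, 5 in the meninges class and 9 in no class. The others lay mostly in cortical layers.

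Among the receptors, Il1r1 bins of the zone held more of the fibroblast and meninges list (1565 and 373 CPM at 3 days, 1052 and 458 CPM at 28 days) and, at 3 days, of the endothelium list (767 and 372 CPM). Tnfrsf1a bins also held more of the fibroblast and meninges list (851 and 314 CPM, then 1094 and 346 CPM), and Il1rap bins less of it (197 and 449 CPM, then 242 and 501 CPM). Tnfrsf1b bins held more of the phagocyte list (2400 and 1220 CPM, then 7186 and 2333 CPM) and the monocyte list (144 and 40.9 CPM, then 64.4 and 10.4 CPM). Nlrp3 bins at 3 days held more of the border macrophage list (359 and 44 CPM, on 10 UMIs) and of the fibroblast and meninges list (1866 and 411 CPM), and Il18 bins at 3 days more of the choroid plexus list (3378 and 1059 CPM). Bins are not cells, and a shared bin does not place both transcripts in 1 cell.

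**Figure D5:**
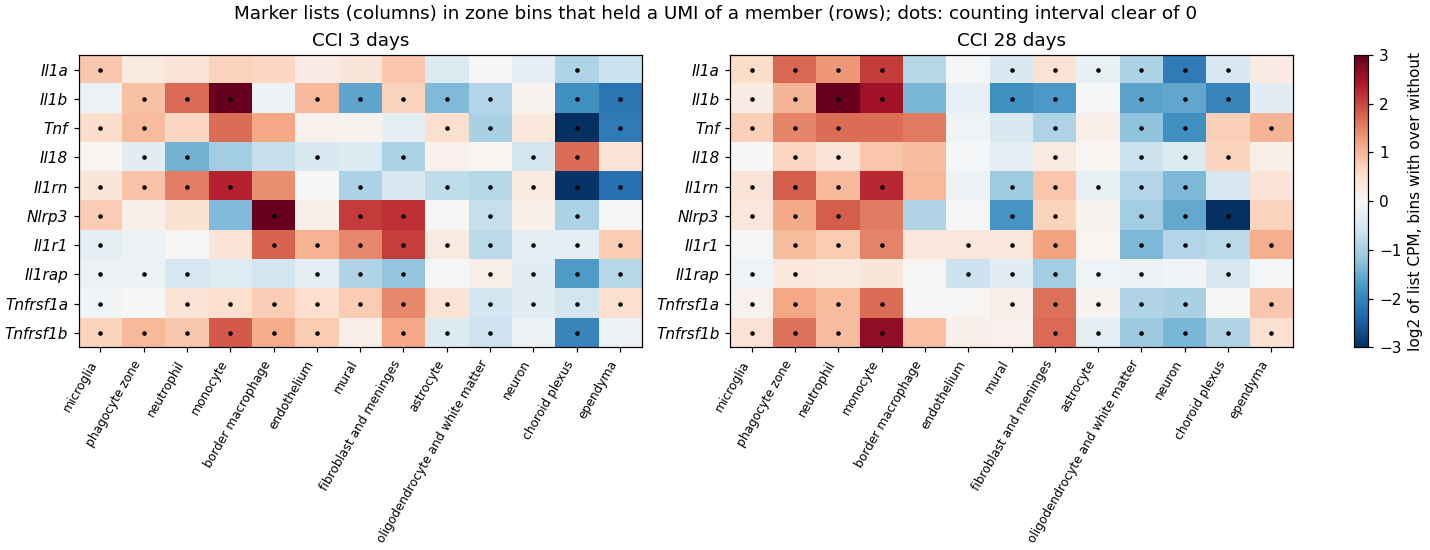
Colours give the log2 ratio of each marker list's CPM (columns) in zone bins with a UMI of a member (rows) over zone bins without, at 3 days (left) and 28 days (right), with the scale limited to 3 on either side of 0, and dots mark counting intervals clear of 0. Il1b is darkest for the monocyte list at 3 days (3.02) and the neutrophil list at 28 days (3.08), and Il1r1 and Tnfrsf1a are raised for the fibroblast and meninges list at both times.

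Members were also compared near to and away from each other in the zone, within 48 µm of a ligand bin. At 3 days Il1rn was at 50.5 CPM near Il1b and 11.6 CPM away from it (log2 ratio 2.12, 1.54 to 2.71), Tnf at 15.3 and 4.19 CPM (1.87, 0.81 to 2.93), and Tnfrsf1b at 102 and 42.2 CPM (1.27, 0.91 to 1.62). Il1b and Il1rn shared 6 bins. Il18 was lower near Il1b (27.9 and 46.1 CPM, log2 ratio -0.71, -1.32 to -0.17). At 28 days Il1b was at 33.3 CPM near Tnf and 3.89 CPM away from it (3.09, 2.29 to 3.92), Il1a at 90.8 and 30.5 CPM (1.58, 1.20 to 1.94), and Il1rn at 18.2 and 11.8 CPM near and away from Tnf (0.65, -0.22 to 1.38). Near and away from Tnf at 3 days Il1rn was at 46.2 and 15.1 CPM (1.62, 0.99 to 2.21). Near and away from Il1b at 28 days Il1rn was at 22.7 and 10.6 CPM (1.11, 0.39 to 1.75) and Tnf at 10.5 and 2.03 CPM (2.37, 1.13 to 3.64). Neighbouring bins share depth and tissue, so these ratios describe placement.

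Over blocks of 512 µm (131 at 3 days, 109 at 28 days), which share tissue and library, the genes most alike in level to Tnfrsf1a were Vim (Pearson r = 0.95) and Msn (0.94) at 3 days and Itgb5 (0.94) and Apoe (0.93) at 28 days. Il1r1 was most like Ostf1 (0.84) and Tnfrsf1a (0.83) at 3 days and Clic1 (0.75) and H2-Aa (0.74) at 28 days. Among the genes most like Il1a were Itgam, Csf1r and Tmem119 (0.59 each) at 3 days and Itgb2, Lyz2 and Ctss (0.85 each) at 28 days. The nearest genes were Tubb6 (0.89), then Gpnmb (0.91), for Tnfrsf1b, Slc44a1 (0.75) and Klk6 (0.74), then Fam53b (0.74), for Il1rap, Serpind1 (0.66), then Dusp11 (0.63), for Il18, and Slc39a1 (0.68) for Nlrp3 at 3 days. Il1b, Il1rn and Tnf, and Nlrp3 at 28 days, had too few UMIs (under 200) for this measure.

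A list of 72 other genes of the pathway (receptor adaptors, NF-kappaB components, inhibitors and known targets) was chosen with earlier results of these data known. It holds Lcn2 and Vcam1, which the study reports from its spatial sections, so its counts and medians are not independent of these data. At 3 days 70 of them had at least 20 UMIs, of which 25 were at least 2-fold higher on the injured side (10.5% of all genes) and none 2-fold lower. Their median log2 ratio was 0.75 (0.14 over all genes). At 28 days 22 of 68 were higher (6.43% of all genes) and 1 was lower, Selp (6 and 16 UMIs, log2 ratio -1.06), with a median of 0.53 (0.04 over all genes). In the zone 38 of 63 were 2-fold higher than in the mirror zone at 3 days (17.4% of all genes) and 41 of 61 at 28 days (16.3%), with medians of 1.24 and 1.75 (0.13 and -0.00 over all genes). Cxcl10 had no UMI in the 28-day mirror zone, and the median was the same with it at the floor of 3 UMIs. Among pathway genes with at least 50 UMIs over both sides, the highest side ratios at 3 days were those of Lcn2, an iron-siderophore carrier (14.8 and 0.422 CPM, log2 ratio 5.11), the chemokines Cxcl10 (3.73) and Ccl2 (3.52), the acute-phase gene Saa3 (3.15), and Selp, an endothelial adhesion molecule (2.65). At 28 days they were Lcn2 (86.5 and 0.598 CPM, log2 ratio 7.15), Saa3 (4.90), Steap4, a metalloreductase (4.42), Tnfaip2 (3.41) and Ccl2 (2.64). The lowest of the same genes were Map3k7 (0.07), Sod2 (-0.01), Irak2 (-0.01), Nfkbib (-0.03) and Tab3 (-0.04) at 3 days, and Tab1 (-0.07), Tollip (-0.09), Tab3 (-0.12), Sod2 (-0.21) and Ptgs2, a prostaglandin synthase (-0.48), at 28 days.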

How the data were processed

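The authors deposited raw UMI counts per gene and 16 µm bin from Visium HD (FFPE sections, mouse probe set), made with Space Ranger 4.0.1 per the file headers, with mm10 named in the labels. These counts were summed per area, with no normalisation other than CPM. Bins under 100 UMIs were left out (1.93% at 3 days, 2.15% at 28 days). Sides were compared as log2 of CPM with 0.5 UMI added per side and exact 95% binomial intervals, which cover counting error only; genes needed 20 UMIs over both areas, and a call means 2-fold. The zone used phagocyte shares averaged over 5 by 5 tiles in patches of at least 25 tiles. Classes needed at least 3 markers above their own section mean, a log2 enrichment of at least 1 and a margin of 0.25 over the next class. Correlations used log2(CPM + 10) and genes with at least 200 UMIs. Named genes were all members, the 5 highest and 5 lowest pathway genes with at least 50 UMIs in each section, and the leading correlated genes, of which 1 is not reported here. Members and lists were chosen with earlier results of these data known. RefSeq sequences on GRCm38.p6 were matched by symbol (10 of 10). The interval code was tested on simulated data. Alternatives covered the boundary, widths, filters, pseudocount, zone and scaling, including TMM factors from edgeR 4.0.16 (R 4.3.3). Python 3.11.15, numpy 2.4.6, scipy 1.17.1, pandas 2.3.3 and matplotlib 3.10.9 were used.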

Additional observations from a re-analysis of the deposited data

Results flagged for a closer look

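Il18 had side ratios of opposite sign at the time points, with a log2 of 0.15 at 3 days and -0.05 at 28 days, a difference of -0.20, and the 28-day interval spans 0. Il1rap had 0.28 at 3 days and -0.29 at 28 days, a difference of -0.57, and both intervals are clear of 0. With 1 section per time point neither difference was tested.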

How the results depend on the processing

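The side ratio of Il1rap at 3 days turned from 0.28 to -0.05 with matched widths on both sides; the cause was not tested. Of 160 recomputed side ratios of members, 136 stayed within their counting interval, 23 moved beyond it without changing sign and this 1 reversed; of 60 zone ratios 44 stayed and 16 moved. The counts of members at least 2-fold higher stayed within 1.5 times in all 24 recomputed counts, at 28 days with 6 of 10 without the choroid plexus, meninges and ependyma classes, an alternative chosen after seeing the data. TMM factors brought the all-gene median side ratio at 3 days from 0.14 to -0.01, and UMIs per bin brought it at 28 days from 0.04 to -0.12, so ratios are read relative to it. No paired analysis was possible because each time point has 1 section. Depth limits Tnf, Il1b, Il1rn and Nlrp3 most, and ratios against mirror zones with 1 to 4 UMIs have wide intervals.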
